A study of Mus musculus with 8 samples.

Results

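Collagens are the main structural proteins of the extracellular matrix, and the genes described here are all those whose symbol in the platform annotation of the array has the form Col, a number, a, a number, leaving out Col17a1. That rule took 41 of the 17097 genes with a probe set of their own, through 67 probe sets. Of the 41 genes, 20 had 1 probe set and 21 had several, and a gene with several was represented by the one with the highest mean over the 8 arrays. RefSeq lists 43 such symbols other than Col17a1, and the remaining 2, Col6a6 and Col28a1, were not analysed here.

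The arrays hold RNA of cells sorted from mouse skin squamous cell carcinoma (SCC) for surface α6-integrin, a laminin receptor subunit of basal keratinocytes, and CD34, a surface glycoprotein of hair follicle stem cells and also of endothelial, blood progenitor and some stromal cells. The founding tumours arose in K14-HPV16 mice, in which papillomavirus genes run from the keratin 14 promoter of basal keratinocytes, on a background labelled FVB/C57/Bl6, either spontaneously or after DMBA and TPA, a carcinogen and a tumour promoter. They were grafted into the skin of nude mice, which lack a thymus but keep their own fibroblasts, vessels and most blood cells, and passed on serially until well differentiated tumours (WD-SCC) had become poorly differentiated ones (labelled PD/S-SCC, here PD-SCC). Blood and endothelial cells were depleted before the sort. Each of 3 tumour lineages was measured at both stages, OT7 with 2 arrays a stage and OT14 and OT15 with 1, so that 4 WD-SCC arrays were set against 4 PD-SCC arrays. The labels give no age, do not say which lineage was induced, and call the arrays biological replicates without naming separate tumours, so the p-values cover only the spread of these samples, part of which may be technical. Later stages came from later passages, and stage and passage cannot be told apart.

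Every collagen chain holds long repeats with glycine at regular steps, and chains wind around each other into a stiff helix in the endoplasmic reticulum. Fibrillar collagens (types I, II, III, V, XI, XXIV and XXVII) pack side by side into fibres. Those of the dermis and of tumour stroma come mostly from fibroblasts. Type IV collagen forms the sheet of the basement membrane that separates epithelium from dermis, type VII anchors that sheet to the dermis, and types XV and XVIII are proteoglycans of basement membrane zones. Type VI forms beaded filaments near cells, and the fibril-associated collagens, among them types XII, XIV and XVI, bind to the surface of fibres. In skin, keratinocytes themselves are known to make types IV, VII and XVIII, and a carcinoma that invades has to cross the basement membrane.

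Values are deposited log2 intensities, on which a difference of 1 is a 2-fold ratio, and differences are PD-SCC minus WD-SCC throughout. The highest of 15 unspiked bacterial control probe sets, taken here as the background of an array, lay between 3.82 and 4.37 on the WD-SCC arrays and between 3.61 and 3.81 on the PD-SCC arrays. The sorted cells differed widely in keratinocyte markers. Krt5, the basal keratin gene, stood between 10.53 and 11.62 in WD-SCC and between 3.93 and 4.33 in PD-SCC, and 7 of 9 measured keratinocyte markers fell (adjusted p under 0.05, limma), with a range of their summed linear values of 5378 to 9430 against 135 to 249. On the PD-SCC arrays Cdh1, the E-cadherin gene, was under the background on all 4. The number of arrays limits the precision of every value, and in RNA from many sorted cells, fewer cells of a type and less RNA per cell cannot be told apart.

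None of the 41 collagens passed the threshold of an adjusted p under 0.05 between stages (limma, two-sided, with a lineage block, Benjamini-Hochberg over all 17097 genes). Over all genes 12.6% passed, 7.78% higher and 4.81% lower in PD-SCC. At an unadjusted p under 0.05 there were 12 collagens, 5 higher and 7 lower, which is 29.3% against 31.9% of all genes. The median difference of the 41 was -0.09, against -0.06 over all genes, and 19 of the 41 (46.3%) had 1 sign in every lineage, against 51.3% of all genes. WD-SCC and PD-SCC arrays did not overlap for 7 collagens, 17.1% of them, a share below the 24.1% of all genes. On the probe set used for each gene, these 7 were Col4a2, Col4a3, Col6a1, Col14a1, Col15a1, Col18a1 and Col22a1. So the collagens as a class did not part the stages more often than other genes, and what follows describes how single types ran in each lineage.

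**Figure D1:**
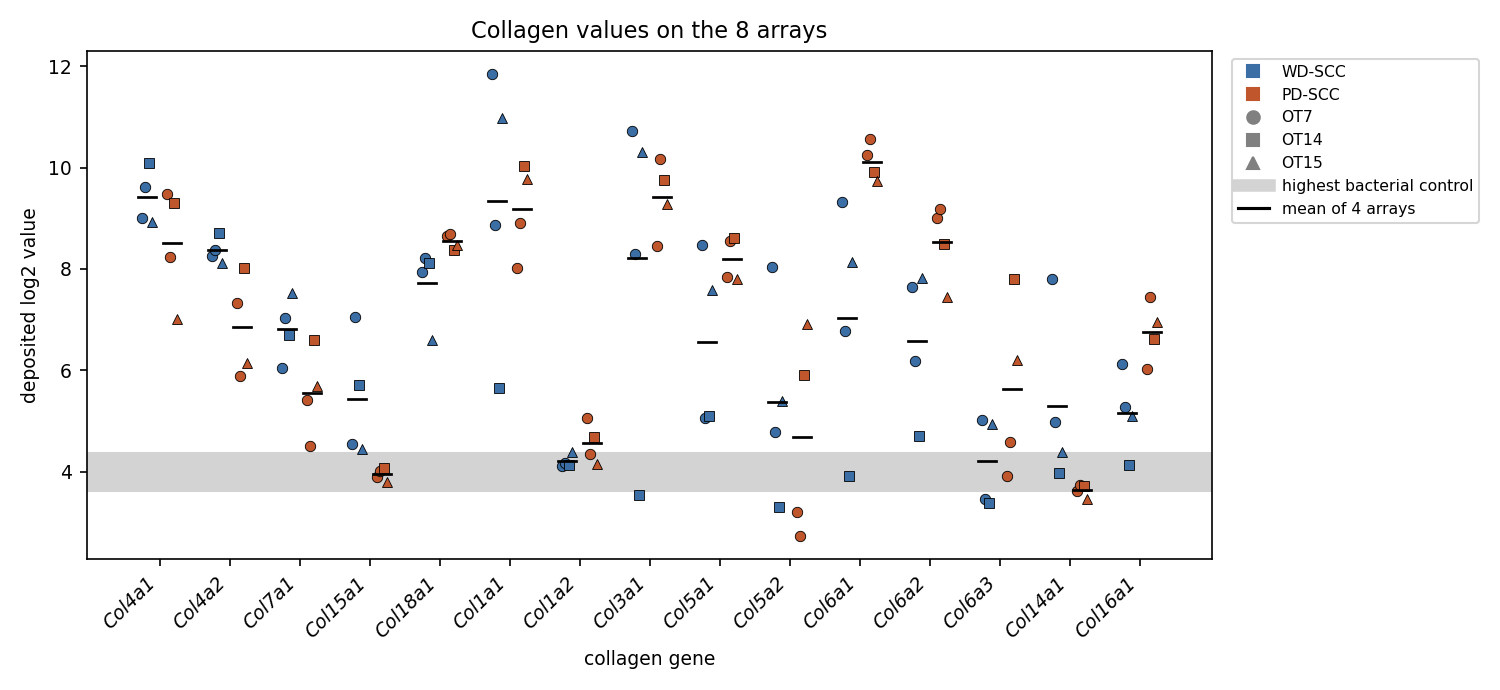
Deposited log2 value (vertical axis) of 15 collagen genes on each of the 8 arrays, WD-SCC in blue and PD-SCC in orange, with circles for OT7, squares for OT14, triangles for OT15, a black line for the mean of 4 arrays and a grey band for the range of the highest bacterial control (3.61 to 4.37). Col6a1 in PD-SCC sits between 9.74 and 10.56, above every WD-SCC array, while Col1a1 in WD-SCC spreads from 5.64 to 11.85.

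Of the 41 genes, 16 were above the background on all 8 arrays: Col1a1, Col2a1, Col4a1, Col4a2, Col5a1, Col5a3, Col6a1, Col6a2, Col7a1, Col8a1, Col9a3, Col12a1, Col16a1, Col18a1, Col25a1 and Col27a1. A further 6 were above it on every array of 1 stage only, namely Col1a2, Col3a1, Col6a3, Col13a1, Col14a1 and Col15a1. Another 7, Col4a4, Col4a5, Col4a6, Col5a2, Col11a2, Col22a1 and Col23a1, were above it on some arrays. The last 12 were not well above background on any array: Col4a3, Col6a4, Col6a5, Col8a2, Col9a1, Col9a2, Col10a1, Col11a1, Col19a1, Col20a1, Col24a1 and Col26a1. Their values ran from 2.76 to 3.80 and their differences from -0.26 to 0.09, the lowest adjusted p among them being 0.194. Among these dim genes are Col9a1, Col9a2, Col10a1 and Col11a1, chains of cartilage collagens. Col2a1 (4.21 to 4.97) and Col9a3 (4.22 to 5.31), also chains of cartilage collagens, were above the background on all 8 arrays. Acan, Comp and the other cartilage markers measured beside them had 1 of 6 above background on each WD-SCC array and 1 to 4 on the PD-SCC arrays. The background was itself lower on the PD-SCC arrays. Hapln1, for example, had means of 3.71 in WD-SCC and 3.74 in PD-SCC but was above background on 0 and 3 arrays. Acan had means of 3.68 and 4.77 (adjusted p = 0.212, limma), and none of the 6 had a call.

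The basement membrane chains Col4a1 and Col4a2 encode the pair of type IV chains found in basement membranes of nearly all tissues. Both genes start from 1 shared stretch of DNA and are read away from each other, so that their first exons overlap by 22 bases in RefSeq. That stretch is shown because these neighbours were lower in PD-SCC in every lineage, in lower case 5′ to 3′ with the 22 shared bases in capitals (GRCm38.p6, chr8:11312802-11312831, + strand, the strand of Col4a2, whose start is at 11312805 while that of Col4a1 is at 11312826).

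Col4a1/Col4a2: ggcAGTGCGCGGGCGGCGTCTCCAAgggga

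Col4a2 measured 8.26 and 8.37 on the OT7 WD-SCC arrays (the unnumbered one and the one numbered 2), 8.72 in OT14 and 8.12 in OT15. On the PD-SCC arrays it measured 7.33 and 5.89 in OT7 (arrays 1 and 2), 8.02 in OT14 and 6.15 in OT15. Every PD-SCC array lay below every WD-SCC array, and the OT14 pair lay closest together. The difference was -1.52 ± 0.37 (SE), from a mean of 8.37 ± 0.25 to 6.85 ± 1.0 (SD, n = 4), with -1.71 in OT7, -0.70 in OT14 and -1.98 in OT15. Its adjusted p of 0.0518 was the lowest of the 41 collagens, at an unadjusted p of 0.00675. That p crossed the threshold in 5 of 17 alternatives, for example at 0.0281 when genes dim on most arrays were left out, and ran from there up to 0.207 without lineage OT7.

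Col4a1 measured 9.0 and 9.62 in OT7, 10.10 in OT14 and 8.93 in OT15 at the WD-SCC stage. At the PD-SCC stage it measured 9.49 and 8.24 in OT7, 9.30 in OT14 and 7.01 in OT15. The stages overlapped through the OT7 PD-SCC array numbered 1, and the difference was -0.91 ± 0.39 (SE, adjusted p = 0.177), with -0.45, -0.80 and -1.93 in the 3 lineages. A further probe set of Col4a1, with a lower mean, gave 9.74, 9.83, 9.95 and 9.05 in WD-SCC and 8.69, 7.53, 8.67 and 6.04 in PD-SCC, in the order of lineages used above. With this probe set the stages did not overlap, and in a limma fit of every probe set by itself the difference was -1.91 ± 0.37 (SE, adjusted p = 0.0379). The 2 probe sets of Col4a1 thus gave different calls for 1 gene, and the rule took the one that missed the threshold.

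**Figure D2:**
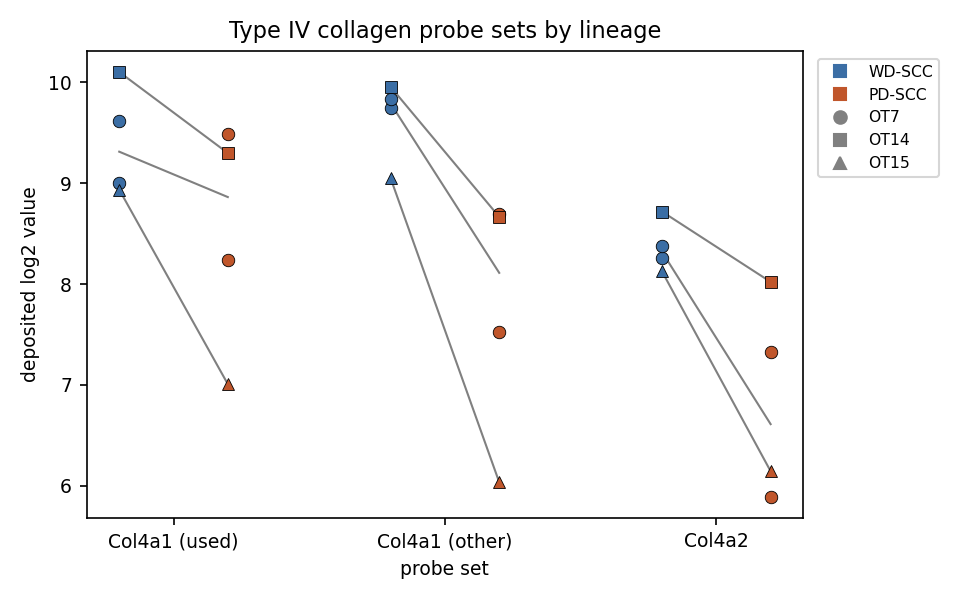
Deposited log2 value (vertical axis) of both Col4a1 probe sets and of Col4a2 on the 8 arrays, WD-SCC in blue and PD-SCC in orange, with circles, squares and triangles for OT7, OT14 and OT15 and a line joining the stage means of each lineage. Each of the 9 lines falls, and the OT15 PD-SCC array lies lowest for both Col4a1 probe sets, at 7.01 and 6.04.

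The other type IV chains, which are restricted to particular basement membranes, were dimmer. Col4a5 was under the background on all 4 WD-SCC arrays and above it on 3 of 4 PD-SCC arrays, at 4.55 and 6.01 in OT7 against 3.64 in OT14 and 3.64 in OT15, and only a bound of at least 1.27-fold higher can be given (adjusted p = 0.138, limma). Col4a6, which lies beside Col4a5 in RefSeq, stood at 4.06 and 4.49 in the OT7 PD-SCC arrays and between 3.13 and 3.34 on the other 6. Both genes were thus highest on the OT7 PD-SCC arrays, with differences within OT7 of at least 1.15 and 0.15 on the log2 scale when the WD-SCC arrays are set to their background (adjusted p = 0.167 and 0.0687 on the deposited values). Col4a4 stood between 3.53 and 4.55 over all arrays, and Col4a3 was under the background throughout.

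Col7a1 encodes the anchoring fibril collagen that ties the basement membrane to the dermis. It measured 6.04 and 7.03 in OT7, 6.69 in OT14 and 7.52 in OT15 at the WD-SCC stage, and 5.41 and 4.51 in OT7, 6.60 in OT14 and 5.70 in OT15 at the PD-SCC stage. OT7 and OT15 were lower in PD-SCC by 1.57 and 1.83 on the log2 scale, while OT14 barely differed, at -0.08, and its PD-SCC array overlapped the WD-SCC range. Over all lineages the difference was -1.26 ± 0.41 (SE, adjusted p = 0.0988).

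Col15a1 and Col18a1 encode the multiplexins of basement membrane zones, and their C-terminal fragments are known as restin and endostatin. Col15a1 measured 4.55, 7.06, 5.70 and 4.45 on the WD-SCC arrays and 3.90, 4.0, 4.08 and 3.80 on the PD-SCC arrays. All PD-SCC values lay near the background and below all WD-SCC values (difference -1.5 ± 0.57 SE, adjusted p = 0.137). Col18a1 measured 7.94, 8.22, 8.11 and 6.60 on the WD-SCC arrays and 8.66, 8.69, 8.37 and 8.48 on the PD-SCC arrays. It was higher on every PD-SCC array, by 0.25 in OT14, 0.60 in OT7 and 1.88 in OT15, where the WD-SCC array stood apart from the other 3 (difference 0.83 ± 0.28 SE, adjusted p = 0.104). A further probe set of Col18a1 gave 6.94, 6.85, 7.85 and 6.12 in WD-SCC and 8.30, 8.13, 8.01 and 8.19 in PD-SCC. Its stages did not overlap either, and its difference was larger, at 1.22 ± 0.29 (SE, adjusted p = 0.0630, limma fit of every probe set). Both multiplexins parted the stages without overlap, in opposite directions and short of the threshold.

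Endothelial cells also make types IV, XV and XVIII, and all 8 endothelial markers measured had a negative difference. Of these, 2 fell past the threshold, Tie1 and Cldn5, and none rose, against 4.81% and 7.78% of all genes. Per array 5 to 7 of the 8 were above background in WD-SCC and 3 to 5 in PD-SCC, with mean log2 levels of 4.12 to 6.82 and 3.69 to 4.17 and summed linear values of 162 to 1750 and 107 to 421. Tek was at or under the background on all 8 arrays. The unnumbered OT7 WD-SCC array was the lowest of its stage for these markers, and Col4a1 stood at 9.0 and Col4a2 at 8.26 there. Cdh5, the vascular cadherin gene, measured 4.31 on that array, 8.75 on the other OT7 array, 9.80 in OT14 and 9.47 in OT15 at the WD-SCC stage. Col15a1 on the same arrays, in the same order, measured 4.55, 7.06, 5.70 and 4.45. At the PD-SCC stage Cdh5 measured 4.52 and 4.36 in OT7, 4.91 in OT14 and 8.39 in OT15. Its stages thus overlapped (adjusted p = 0.177, limma). On the OT15 PD-SCC array Col4a1 stood at 7.01 and Col4a2 at 6.15. The part of endothelial cells in the values of these collagens was not tested.

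Of 11 fibrillar genes 2 (18.2%, against 31.9% of all genes) had an unadjusted p under 0.05 (limma), Col2a1 and Col27a1, both lower. A further, dimmer probe set of Col27a1 had the opposite sign, at 0.07 ± 0.15 (SE, adjusted p = 0.770, limma fit of every probe set). For none of the 11 did the stages part without overlap on the probe set used for the gene, against 24.1% of all genes. Their median difference was 0.02, with medians of -0.19 in OT7, 0.56 in OT14 and -0.23 in OT15. Col1a1, Col3a1 and Col5a3 were lowest on the OT14 WD-SCC array.

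Col1a1 encodes the main chain of type I collagen, the most abundant protein of dermis. It measured 11.85 and 8.87 in OT7, 5.64 in OT14 and 10.98 in OT15 at the WD-SCC stage. At the PD-SCC stage it measured 8.03 and 8.92 in OT7, 10.03 in OT14 and 9.78 in OT15. PD-SCC arrays lay inside the range of WD-SCC arrays, at 9.19 ± 0.91 against 9.34 ± 2.76 (SD, n = 4), with differences of -1.89 in OT7, 4.39 in OT14 and -1.20 in OT15. The overall difference was -0.15 ± 1.27 (SE, adjusted p = 0.946), and its sign turned with the choice of arrays, from -1.66 without either OT14 array to 0.80 without the unnumbered OT7 WD-SCC array. Col1a2, the other chain of type I, was read by 1 probe set with values between 4.11 and 5.06 on all arrays, near the background, also where Col1a1 was above 10 (difference 0.36 ± 0.22 SE, adjusted p = 0.311).

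Col3a1, the type III chain of young and healing dermis, followed the same arrays. In WD-SCC it measured 10.72 and 8.29 in OT7, 3.54 in OT14 and 10.30 in OT15, and in PD-SCC 8.46 and 10.16 in OT7, 9.76 in OT14 and 9.27 in OT15. Its value in OT14 WD-SCC was under that array's background, while the 7 others lay at 8.29 or above. The difference was at least 5.94 on the log2 scale in OT14, with that array set to its background, against -0.19 in OT7 and -1.03 in OT15, and 1.20 ± 1.36 (SE, adjusted p = 0.571) over all lineages, or -0.47 without either OT14 array. A further probe set of Col3a1 was under the background on every array.

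Type V collagen sets the width of type I fibres. Col5a1 measured 8.47, 5.05, 5.10 and 7.59 in WD-SCC and 7.84, 8.55, 8.62 and 7.80 in PD-SCC. The WD-SCC arrays split into a high and a low pair while the 4 PD-SCC arrays lay within 7.80 to 8.62 (difference 1.65 ± 0.88 SE, adjusted p = 0.252). A further probe set of Col5a1 overlapped likewise, at 7.37, 4.72, 4.45 and 7.02 in WD-SCC. A dimmer one gave 4.31, 3.17, 4.09 and 4.21 in WD-SCC and 4.82, 5.55, 5.29 and 4.97 in PD-SCC. There the stages did not overlap (1.21 ± 0.31 SE, adjusted p = 0.0726, limma fit of every probe set). Col5a2 measured 8.03, 4.78, 3.31 and 5.40 in WD-SCC and 3.20, 2.73, 5.91 and 6.91 in PD-SCC. Both OT7 PD-SCC arrays and the OT14 WD-SCC array were under the background, and with these set to it the log2 difference was -2.73 in OT7 and 2.09 in OT14, both bounds, beside 1.51 in OT15 (over all lineages, on the deposited values, -0.69 ± 1.34 SE, adjusted p = 0.744). The sign was positive without the unnumbered OT7 WD-SCC array, at 0.51. Col5a3 also turned between lineages, at -1.79 in OT7, 4.30 in OT14 and -0.25 in OT15.

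**Figure D3:**
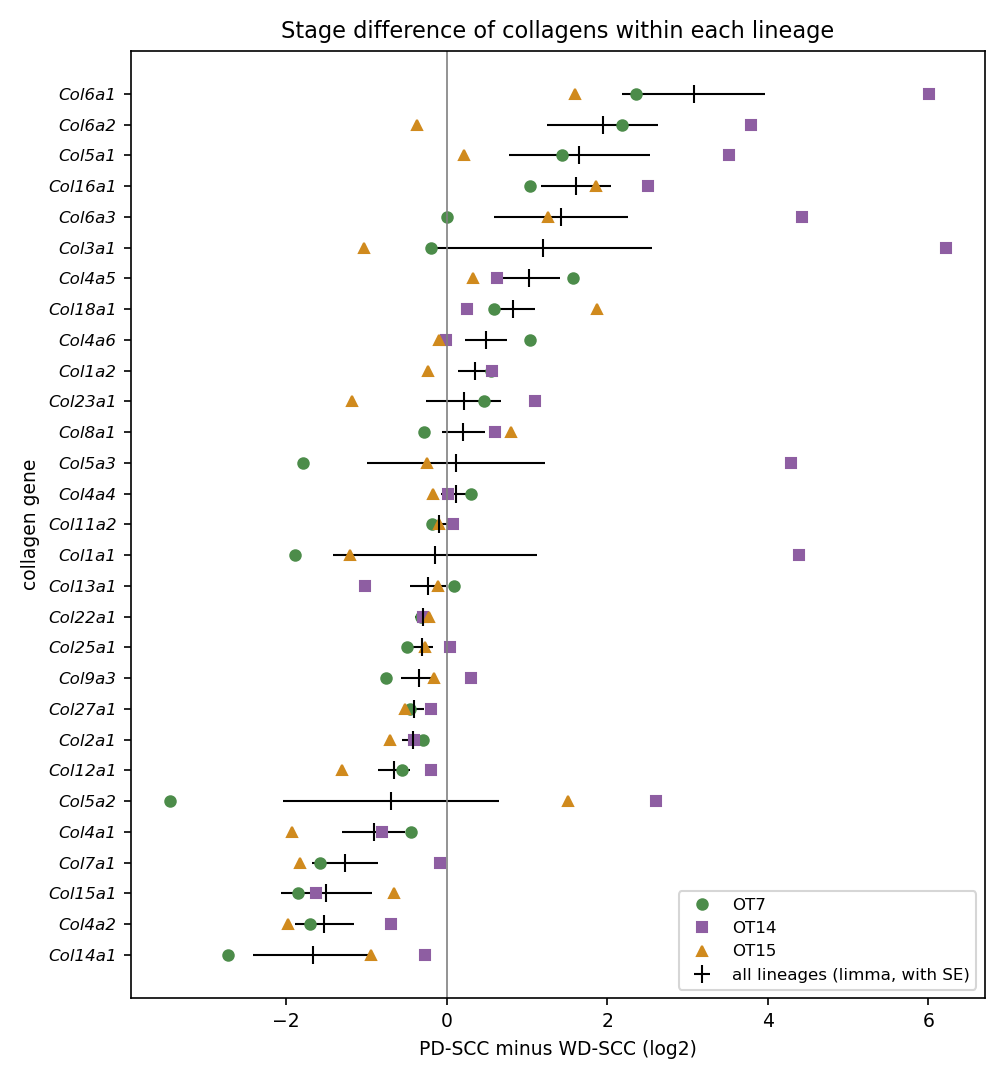
Difference between PD-SCC and WD-SCC (horizontal axis, log2) of the 29 collagen genes above the background on at least 1 array, with circles for OT7, squares for OT14, triangles for OT15 and a black mark with its SE for the limma fit over all lineages. Deposited values are plotted, so marks that rest on arrays under the background are not measured folds. The OT14 squares of Col6a1 (6.00), Col1a1 (4.39) and Col5a3 (4.30) lie to the right of the OT7 and OT15 marks of the same genes, as do those of Col3a1 and Col6a3, whose bounds are 5.94 and 3.98.

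Type VI collagen is assembled from 3 different chains, usually those of Col6a1, Col6a2 and Col6a3, and lines cells and basement membranes. Col6a1 had the largest difference of all 41 genes. It measured 9.31 and 6.78 in OT7, 3.91 in OT14 and 8.14 in OT15 at the WD-SCC stage, and 10.24 and 10.56 in OT7, 9.92 in OT14 and 9.74 in OT15 at the PD-SCC stage. All PD-SCC arrays lay above all WD-SCC arrays, and the spread was 0.36 in PD-SCC against 2.33 in WD-SCC (SD, n = 4). The difference was 3.08 ± 0.89 (SE, adjusted p = 0.0776), with 2.35 in OT7, 6.00 in OT14 and 1.60 in OT15. Without either OT14 array it was smaller but kept its sign, at 2.10, and the adjusted p over 17 alternatives ran from 0.0404 to 0.240 and passed the threshold in 2.

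Col6a2 measured 7.64, 6.19, 4.70 and 7.81 in WD-SCC and 9.0, 9.19, 8.48 and 7.44 in PD-SCC. OT7 and OT14 were higher in PD-SCC, by 2.18 and 3.79, and OT15 was not, at -0.37 (overall 1.94 ± 0.69 SE, adjusted p = 0.122). Its further probe set gave 2.27 ± 0.85 (SE, adjusted p = 0.155). Col6a3 measured 5.03, 3.46, 3.38 and 4.95 in WD-SCC and 3.92, 4.59, 7.81 and 6.20 in PD-SCC, with 0.01 in OT7, at least 3.98 in OT14, whose WD-SCC array was under the background, and 1.26 in OT15 (overall 1.43 ± 0.83 SE, adjusted p = 0.288). All 3 chains were thus higher in OT14 PD-SCC, while Col6a2 was not in OT15 and Col6a3 was even in OT7. Col6a4 and Col6a5, chains that can stand in for Col6a3, were under the background on all arrays.

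The promoter of Col6a1 is shown beside that of Col16a1, since these were the 2 collagens with the smallest p among those higher in PD-SCC. Both are the 250 bases before the RefSeq start (GRCm38.p6), 5′ to 3′ along the gene, with CCAAT and GGGCGG on either strand in capitals. Col6a1 lies at chr10:76726045-76726294 on the - strand and holds neither motif. Col16a1 lies at chr4:130047590-130047839 on the + strand and holds 1 of each.

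Col6a1: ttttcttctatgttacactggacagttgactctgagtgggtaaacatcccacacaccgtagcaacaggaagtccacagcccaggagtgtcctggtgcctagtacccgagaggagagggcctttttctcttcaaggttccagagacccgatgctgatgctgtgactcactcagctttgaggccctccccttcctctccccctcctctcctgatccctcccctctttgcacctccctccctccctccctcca

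Col16a1: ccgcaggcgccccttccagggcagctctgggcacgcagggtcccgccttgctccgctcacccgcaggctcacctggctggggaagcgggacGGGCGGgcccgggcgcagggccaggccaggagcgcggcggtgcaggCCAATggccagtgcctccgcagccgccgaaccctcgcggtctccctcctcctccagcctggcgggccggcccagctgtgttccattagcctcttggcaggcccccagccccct

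RefSeq promoter windows were found for 32 of the 41 collagens, 35 windows in all. CCAAT stood in 12 of the 35 (34.3%), against 33.8% of 32851 windows of all genes, and GGGCGG in 21 of the 35 (60.0%), against 32.7%. Both motifs were searched on both strands and do not overlap in Col16a1, and a match is a description of letters, not a site of binding.

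Col16a1, a fibril-associated collagen of the zone under the epidermis, was higher in PD-SCC in every lineage. It measured 6.13 and 5.27 in OT7, 4.12 in OT14 and 5.09 in OT15 at the WD-SCC stage, and 6.03 and 7.45 in OT7, 6.62 in OT14 and 6.95 in OT15 at the PD-SCC stage. Only the OT7 PD-SCC array numbered 1 overlapped the WD-SCC range, by 1 array. The difference was 1.61 ± 0.44 (SE, adjusted p = 0.0671), with 1.04, 2.50 and 1.86 in the 3 lineages. It passed the threshold in 3 of 17 alternatives, among them without the OT7 PD-SCC array numbered 1 (2.01, adjusted p = 0.0340), and its adjusted p was 0.168 without the other one.

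Col14a1, which binds fibres through decorin, ran the other way. It measured 7.81, 4.97, 3.97 and 4.39 in WD-SCC and 3.61, 3.74, 3.71 and 3.45 in PD-SCC. The PD-SCC arrays all lay at about the background and below all WD-SCC arrays, and the difference of -1.66 ± 0.75 (SE, adjusted p = 0.191) shrank to -0.88 without the unnumbered OT7 WD-SCC array, on which the gene was highest. In both further probe sets of Col14a1 the stages overlapped and every PD-SCC array was under the background. Only bounds of at least 2.27-fold and 1.24-fold lower can be given (adjusted p = 0.391 and 0.236, limma fit of every probe set). The first of these was above the background on 1 WD-SCC array only, the unnumbered OT7 one, at 8.46. Of the 9 fibril-associated genes 8 had a negative difference, Col16a1 being the exception, but 4 of the 9 (Col9a1, Col9a2, Col19a1 and Col20a1) were under the background throughout. Col12a1, of dense connective tissue, stood at 5.05 ± 0.48 in WD-SCC and 4.39 ± 0.15 in PD-SCC (difference -0.65 ± 0.20 SE, adjusted p = 0.0875). Col2a1 and Col27a1 lay equally close to the background, at -0.42 ± 0.14 and -0.40 ± 0.12 (SE, adjusted p = 0.0992 and 0.0793). The bacterial controls were themselves brighter on the WD-SCC arrays, and their part in these small negative differences was not tested. Col8a1, a short-chain collagen of vessel walls and cornea, was near even on the probe set used, at 7.02 ± 0.35 and 7.23 ± 0.38 (SD, n = 4). A dimmer probe set of Col8a1 stood at 4.10 ± 0.40 and 4.74 ± 0.31 with overlapping stages (difference 0.65 ± 0.21 SE, adjusted p = 0.115, limma fit of every probe set). Another was under the background on all WD-SCC arrays and above it on 3 of 4 PD-SCC arrays. That one passed the test in the same fit (adjusted p = 0.0125) with no fold to give. The membrane-spanning collagens Col13a1, Col23a1 and Col25a1 stood at 4.40 ± 0.57, 4.24 ± 0.94 and 4.33 ± 0.24 in WD-SCC and at 4.16 ± 0.11, 4.45 ± 0.85 and 4.03 ± 0.07 in PD-SCC (SD, n = 4), the second with opposite signs in OT14 (1.11) and OT15 (-1.18). Col9a3 stood at 4.93 ± 0.26 and 4.58 ± 0.38, and Col11a2 and Col22a1 at 3.74 ± 0.13 and 3.86 ± 0.13 in WD-SCC against 3.64 ± 0.09 and 3.57 ± 0.12 in PD-SCC, so that the parting of stages for Col22a1 lay at the background.

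Within single lineages no collagen passed the threshold either. Of all genes, 9.07% passed within OT7, 0.842% within OT14 and 1.33% within OT15, from a limma fit whose spread comes from the OT7 arrays alone. At an unadjusted p under 0.05 there were 10 collagens in OT7 (24.4%, against 28.4% of all genes), 7 in OT14 (17.1%, against 14.5%) and 2 in OT15 (4.9%, against 18.7%). The closest to the threshold were Col18a1 in OT15 (1.88, adjusted p = 0.0602) and Col4a6 in OT7. The test of a difference of the stage effect between lineages called no gene at all (0% of 17097 genes), with 2043 genes (11.9%) and 5 collagens (12.2%) at an unadjusted p under 0.05. These 5 were Col18a1, Col5a3, Col6a3, Col6a2 and Col3a1, with adjusted p from 0.284 to 0.412. So the unequal lineages of type I, III, V and VI collagens are values on these arrays, and a difference between lineages was not shown. The test has little power to show one. On simulated arrays it recovered 0% of differences of 2 log2 units planted in OT15 and 42% of those of 4. Levels by lineage beside stage also gave no call (0% of all genes, with 1251 genes and 1 collagen at an unadjusted p under 0.05).

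Replicate spread was wide for these genes. The OT7 WD-SCC arrays differed by more than 1 log2 unit in 10 of 41 collagens (24.4%), against 9.55% of all genes, and the OT7 PD-SCC arrays in 7 (17.1%), against 3.50%. The unnumbered OT7 WD-SCC array was above its partner by 3.41 for Col5a1, 3.25 for Col5a2, 2.98 for Col1a1, 2.84 for Col14a1, 2.53 for Col6a1 and 2.43 for Col3a1, while the same difference was -2.51 for Col15a1. Of the 41 collagens, the OT14 WD-SCC array was the lowest of the 8 for 9 (22.0%), against 8.7% over all genes. The unnumbered OT7 WD-SCC array was the highest for 11 (26.8%), against 17.0%, and the OT15 WD-SCC array for 10 (24.4%), against 18.4%. These counts include the 12 collagens under the background on every array.

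Fibroblast markers ran over the same arrays. Of 14 measured, 1 rose (S100a4, also a gene of motile tumour cells) and 1 fell (Thy1), against 7.78% and 4.81% of all genes. Per array 8 to 11 of the 14 were above background in WD-SCC and 9 or 10 in PD-SCC. The mean log2 level was 6.82 on the unnumbered OT7 WD-SCC array, 5.66 on its partner, 4.61 in OT14 and 5.62 in OT15, and between 5.21 and 5.50 on the PD-SCC arrays. Summed linear values ran from 790 to 4163 in WD-SCC and from 1807 to 2412 in PD-SCC. Dcn, the decorin gene, was at 10.60, 9.69, 7.75 and 8.90 in WD-SCC and at 7.15, 9.58, 10.04 and 10.22 in PD-SCC, while Fap and Pi16 were at or under the background on all arrays and Pdgfra on all 4 WD-SCC arrays. The OT14 WD-SCC array was the lowest of the 8 for this list and for Col1a1, Col3a1, Col6a1, Col6a2, Col6a3 and Col16a1, and the unnumbered OT7 WD-SCC array was the highest for this list and for Col1a1, Col3a1, Col5a2 and Col14a1. Others differed. Col6a1, Col6a2 and Col16a1 were highest on the OT7 PD-SCC array numbered 2, and Col5a1 and Col6a3 in OT14 PD-SCC. The lowest array was OT7 WD-SCC 2 for Col5a1, OT7 PD-SCC 2 for Col5a2 and OT15 PD-SCC for Col14a1. The part of fibroblasts among the sorted cells in these collagen values was not tested.

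**Figure D4:**
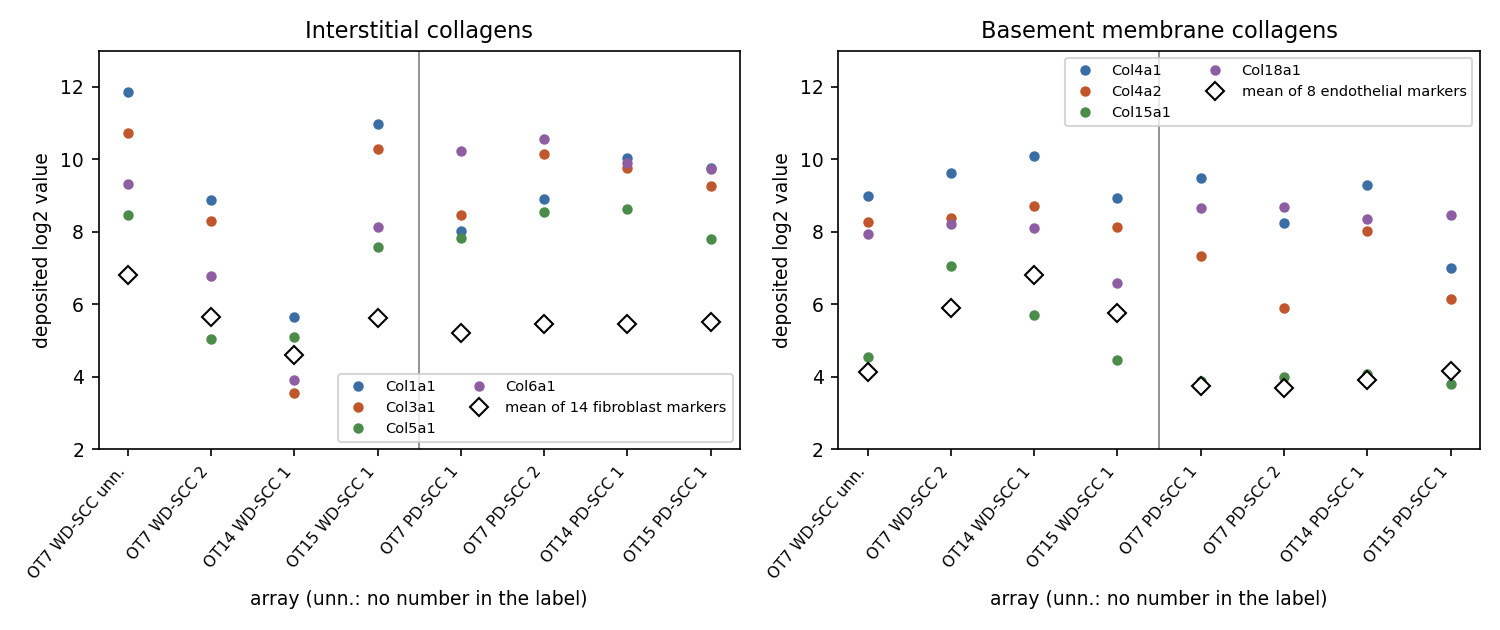
Deposited log2 values (vertical axis) on each of the 8 arrays, WD-SCC left and PD-SCC right of the line in each panel, of Col1a1, Col3a1, Col5a1 and Col6a1 with the mean of 14 fibroblast markers (left) and of Col4a1, Col4a2, Col15a1 and Col18a1 with the mean of 8 endothelial markers (right). The fibroblast mean is lowest in OT14 WD-SCC (4.61), where the 4 interstitial collagens lie between 3.54 and 5.64, and the endothelial mean is 4.12 on the unnumbered OT7 WD-SCC array, where Col4a1 stands at 9.0.

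Beside the collagen genes themselves, genes that modify, fold, process, cross-link and bind collagen were taken as 4 lists of 36 measured genes. Of the 36, 8 passed the test as higher and 2 as lower in PD-SCC, against 7.78% and 4.81% of all genes, with a median difference of 0.55 against -0.06 over all genes. The stages did not overlap for 12 of the 36 (33.3%), against 24.1% of all genes. With the OT7 arrays averaged, so that fewer samples enter the fit, 1 passed as higher and 0 as lower, and 401 of all genes passed in place of 2154. Without OT7 there were 0 and 0, and 246 of all genes. The differences with the OT7 arrays averaged were 1.46 for Plod3, 1.47 for Mia3, 1.12 for P4hb, 2.97 for Plod2 and -2.88 for Itga2.

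Of 16 genes of chain modification and folding in the endoplasmic reticulum, 6 passed as higher, 1 of them (P3h1) from under the background, and none as lower. Over all genes 7.78% passed as higher and 4.81% as lower. Plod3, a lysyl hydroxylase that also adds sugars to collagen, measured 7.48, 8.22, 8.08 and 7.58 in WD-SCC and 9.51, 9.74, 9.29 and 8.99 in PD-SCC, with no overlap (1.54 ± 0.21 SE, adjusted p = 0.0110). Mia3, which encodes TANGO1, the loader of procollagen into large transport carriers, measured 6.77, 6.46, 7.40 and 6.60 in WD-SCC and 8.59, 8.27, 8.38 and 8.21 in PD-SCC (1.56 ± 0.19 SE, adjusted p = 0.00851). P4hb, the protein disulfide isomerase subunit of prolyl 4-hydroxylase, rose from 9.12 ± 0.37 to 10.20 ± 0.05 (SD, n = 4, adjusted p = 0.0150). In each of these 3 genes every PD-SCC array was above every WD-SCC array, and all 3 lineages had the same sign. Plod3 passed in 16 of 17 alternatives, Mia3 in 15 and P4hb in 13.

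Plod2, the lysyl hydroxylase of the telopeptides that set stiff cross-links, measured 4.58, 4.26, 5.53 and 4.33 in WD-SCC and 5.56, 5.98, 8.70 and 8.71 in PD-SCC. The rise of 2.56 ± 0.55 (SE, adjusted p = 0.0382) was 3.17 in OT14, 1.35 in OT7 and, its WD-SCC array being just under the background, at least 4.34 in OT15, a difference between lineages that did not pass (adjusted p = 0.215), and the call held in 4 of 17 alternatives. Crtap, a partner of prolyl 3-hydroxylase, rose by 1.43 ± 0.28 (adjusted p = 0.0312), passing in 8 of 17. P3h1, its enzyme partner, was under the background on all WD-SCC arrays, at 3.60 ± 0.10, and stood at 4.11 ± 0.17 in PD-SCC. It passed the test (adjusted p = 0.0445, and in 4 of 17 alternatives), but so near the background no fold can be given. Colgalt1, a galactosyltransferase of collagen, was at 1.12 ± 0.34 (SE, adjusted p = 0.0851) and Plod1 at 1.07 ± 0.40 (adjusted p = 0.133), and P4ha3 at -0.21 ± 0.15 (adjusted p = 0.358).

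Propeptide processing had no call among 6 genes, with 2 (33.3%, against 31.9% of all genes) at an unadjusted p under 0.05 (limma). They were the procollagen C-proteinase enhancers Pcolce (2.21 ± 0.63 SE, adjusted p = 0.0743) and Pcolce2 (2.25 ± 0.68 SE, adjusted p = 0.0854). Pcolce measured 7.08, 4.54, 4.14 and 4.41 in WD-SCC and 7.99, 7.02, 7.39 and 6.59 in PD-SCC, and it was the unnumbered OT7 WD-SCC array that overlapped. Pcolce passed in 3 of 17 alternatives, its adjusted p running from 0.0155 without that array to 0.182 without either OT14 array. Among 5 cross-linking oxidases Loxl3 rose by 2.75 ± 0.66 (SE, adjusted p = 0.0497), from 5.90, 3.94, 4.04 and 4.66 to 8.29, 8.84, 7.03 and 5.39, and passed in 6 of 17 alternatives. Loxl2 was at 0.94 ± 0.31 (adjusted p = 0.0996) and Loxl1 at 1.09 ± 0.59 (adjusted p = 0.259).

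Of 9 receptors and uptake genes, 1 rose and 2 fell, against 7.78% and 4.81% of all genes. Itga2, the collagen-binding integrin subunit of keratinocytes, measured 8.34, 8.75, 7.75 and 8.19 in WD-SCC and 4.23, 5.03, 4.46 and 6.76 in PD-SCC, with no overlap (-3.14 ± 0.47 SE, adjusted p = 0.0146), and passed in 12 of 17 alternatives. Ddr1, the collagen-binding receptor kinase of epithelia, fell by 1.10 on the log2 scale (SE 0.26, adjusted p = 0.0482) and passed in 7 of 17 alternatives. Ddr2, the related receptor kinase of mesenchymal cells, measured 9.16, 6.99, 5.38 and 7.11 in WD-SCC and 9.32, 9.43, 9.76 and 9.12 in PD-SCC, so that only the unnumbered OT7 WD-SCC array reached the PD-SCC values (2.25 ± 0.70 SE, adjusted p = 0.0895). Mrc2, the endocytic receptor that takes up cleaved collagen, rose by 2.23 ± 0.45 (SE, adjusted p = 0.0321), from 5.37, 4.46, 3.37 and 4.92 to 6.16, 7.34, 6.89 and 6.64, and passed in 8 of 17. The epithelial receptors Itga2 and Ddr1 thus fell on arrays where keratinocyte markers fell too, and the part of the latter was not tested. Itga10, a collagen-binding integrin subunit of cartilage, was under the background on all WD-SCC arrays and above it in PD-SCC only in OT7, at 6.00 and 6.15, against 3.56 in OT14 and 3.38 in OT15 (adjusted p = 0.119).

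**Figure D5:**
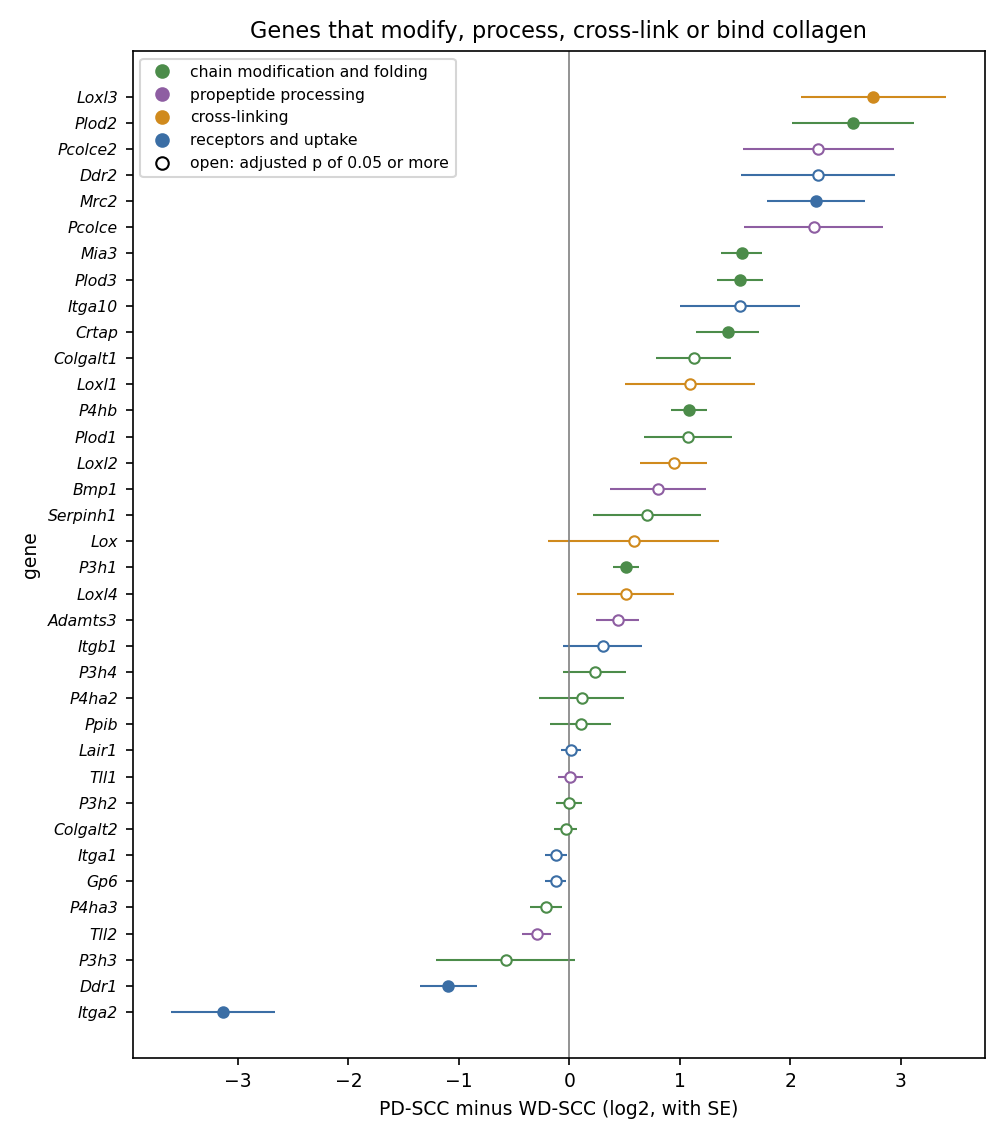
Difference between PD-SCC and WD-SCC (horizontal axis, log2, with its SE from limma) of 36 genes that modify, process, cross-link or bind collagen, coloured by list and filled where the adjusted p was under 0.05. The 10 filled genes run from Itga2 at -3.14 to Loxl3 at 2.75. Of the 36, 27 lie above 0, against 7211 of all 17097 genes.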

How the data were processed

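RNA of 8 samples of sorted mouse tumour cells was hybridised to Affymetrix arrays. The authors deposited log2 values, 1 for each probe set on each array. RMA and the affy package are named in the submitters' processing notes, with no version. Chip definition and joint normalisation: not given in the sources used here. Among 45141 probe sets were 104 controls, 28898 with 1 symbol and 551 with several; 99.1% of genes were matched by Entrez number to RefSeq symbols.

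Groups and lineages came from the labels, and arrays were paired by lineage, per the series design. As a check, each lineage's deviations from its stage means were correlated between WD-SCC and PD-SCC over all genes, which gave -0.04 for OT7, 0.02 for OT14 and 0.06 for OT15. Stage effects were fitted with limma 3.58.1 in R 4.3.3 (lmFit, eBayes, two-sided) over 17097 genes with lineage as a fixed block (4 residual degrees of freedom), and within lineages with 1 coefficient per lineage and stage (2 residual degrees of freedom, from OT7 alone). Adjusted p are Benjamini-Hochberg values over all genes, with a threshold of 0.05. A gene at or under the highest bacterial control on each array of 1 stage is given as a bound, the mean of the bright stage over the mean, in the dim stage, of the higher of control and gene. The scripts were tested on simulated data. Figures were drawn in matplotlib 3.10.9 under Python 3.11.15.

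The rule for named collagens took any past a threshold, 11 given whatever their values, and the 10 largest differences among genes above the background on all arrays of a stage, 15 in all; others are named for their level class or p. Of partner genes it took those past the threshold and up to 3 others per list. Of the partner lists, P4ha1, Fkbp10, Fkbp14, Adamts2, Adamts14 and Itga11 were not analysed here, nor were some genes of the marker lists. Of the other marker lists, on pericytes and smooth muscle (7 genes), Schwann cells and melanocytes (6) and cartilage (6), none had a call, and of 8 haematopoietic markers 2 fell, with summed linear values of 380 to 753 in WD-SCC and 111 to 202 in PD-SCC. The members, lists and rules were chosen with earlier results of these data known. Alternatives were no block, a random block, averaged OT7 arrays, the mean of probe sets, each probe set, a filter on dim genes, a trended and robust prior, cyclic loess, scaling to the 75th percentile, and leaving out each array or OT7.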

Additional observations from a re-analysis of the deposited data

Results flagged for a closer look

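Col18a1 in WD-SCC was set apart by 1 array, OT15, at 6.60, against 7.94 to 8.22 on the other 3. Its gap to the nearest array, divided by the range of the stage, was 0.83, at the critical value of Dixon's test for 4 arrays. Over 30 groups tested (15 collagens at each stage), chance sets about 1 in 20 apart. Without either OT15 array, and so without that lineage, the Col18a1 difference was 0.48 in place of 0.83. These values are of the probe set used. A further probe set of Col18a1 read 6.94 and 6.85 in OT7, 7.85 in OT14 and 6.12 in OT15 at the WD-SCC stage, with a difference of 1.22.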

How the results depend on the processing

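The count of collagens past the threshold between stages was 0 higher and 0 lower with lineage as a block, and the same with no replicate block (no lineage block), where 2123 of all genes passed in place of 2154; the partner genes Plod2 and Loxl3 lost their calls there. It was 0 higher and 1 lower with each gene's probe sets averaged and with cyclic loess (Col4a2 in both), 2 higher and 1 lower with the filter on dim genes and with the trended and robust prior (Col6a1, Col16a1 and Col4a2), 0 higher and 3 lower with scaling to the 75th percentile (Col4a2, Col2a1 and Col12a1), and 1 higher and 1 lower with each probe set by itself (of Col8a1, where WD-SCC was under the background, and Col4a1). Leaving out 1 array gave 0 to 1 higher and 0 lower. The median difference of the collagens was -0.24 with scaling to the 75th percentile, which moved that of all genes to -0.21, and between -0.13 and -0.06 without 1 array. Partner genes past the threshold numbered 8 higher and 2 lower, 1 and 0 with the OT7 arrays averaged, 4 higher with cyclic loess, 1 lower with the trended and robust prior, 0 and 0 without lineage OT7, and 3 to 9 higher and 0 to 2 lower without 1 array. The Col1a1 difference turned to 0.43 with the OT7 arrays averaged and 1.59 without OT7, and ran from -1.66 to 0.80 without 1 array. Col5a2 turned to 0.22 and 2.06 under these alternatives and ran from -1.79 to 0.51 without 1 array, and Col3a1 ran from -0.47 to 1.97. The cause of these changes was not tested. An OT14 or OT15 array left out takes its lineage out of the stage effect. Leaving out the WD-SCC or the PD-SCC array of such a lineage thus gave the same stage result, and each counts as 1 alternative. The counts of alternatives passed therefore hold repeats. Signal over background limits Col1a2, Col4a3 to Col4a6 and the 12 genes under the controls.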
